A study of Mus musculus with 18 samples.

Results

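Replication-dependent histone genes were followed in thymocytes of ageing mice by their probes on Agilent 2-colour arrays. The members were all non-control probes whose gene name on the array starts with Hist1h, Hist2h, Hist3h or Hist4h, which are 30 of 41174 distinct non-control probes and carry 26 gene names. They comprise 6 probes for the linker histone H1, 8 for H2A, 7 for H2B, 2 for H3 and 7 for H4. Of these, 29 passed the filter on dim signals, and 3 of those were saturated, which left 26 for the comparisons.

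Thymocytes, which are T cells in development, were isolated from C57BL/6 mice aged 6, 16 and 24 months, 3 mice per age, after red cell lysis. Their RNA was labelled with Cy3 and hybridized against Cy5-labelled thymocyte RNA of 1 month mice, the reference on all 9 arrays. The mice carried no treatment or engineered allele in the labels. The series design calls the 1 month material a pool, whereas the sample labels number 9 samples of it. It was therefore treated as 1 control whose own spread is left out. No array had the dyes swapped, so older against 1 month is also Cy3 against Cy5. Values are log2 ratios of processed signal, and positive values mean a higher signal in the older mouse. Rose and fell refer to the 1 month reference and not to a change between the older ages.

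Histones package DNA into nucleosomes, whose core holds H2A, H2B, H3 and H4, with H1 on the linker. Replication-dependent histone genes lie in clusters and are transcribed in S phase, when newly made DNA needs new histones. Their mRNAs end in a stem-loop instead of a poly(A) tail, and the stem-loop binding protein Slbp governs their processing, translation and decay. The amplification kit primes cDNA from poly(A) tails, as background knowledge of the method, so how fully these mRNAs entered the labelled cRNA is not known from these data. Some members are testis forms, among them Hist1h1t, Hist1h2aa and Hist1h2ba.

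Many of these genes are near-identical in their coding sequence. For 12 of the 30 probes the array annotation lists more than 1 RefSeq mRNA, and several of the H4, H2A and H2B probes list the same ones. These probes are therefore not independent measurements of separate genes, and a level cannot be assigned to 1 gene where the annotation lists several. No probe has more than 4 listed accessions of any kind, so the lists may be incomplete. The number 12 may thus be too low, and a probe listing 1 mRNA may detect others.

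The stretch before the gene start is shown for 3 members whose ratios moved together across the arrays (Hist1h4d, Hist1h1e and Hist1h2ab) and for 2 that did not share their wide swings (Hist1h1c and Hist1h2bm). Each is the 250 bases before the RefSeq start on the mouse build GRCm38.p6, read on the gene's strand. Capitals mark matches to 5 motifs searched on both strands. The TATA box was searched as TATAAA. The box of many S phase promoters was searched as CCAAT. The octamer, known from H2B promoters, was searched as ATTTGCAT. The H1 box was searched as AAACACA. The core of the H4 element called site II was searched as GGTCC. Matches of different motifs may overlap.
Hist1h4d, chr13:23581318-23581567, plus strand: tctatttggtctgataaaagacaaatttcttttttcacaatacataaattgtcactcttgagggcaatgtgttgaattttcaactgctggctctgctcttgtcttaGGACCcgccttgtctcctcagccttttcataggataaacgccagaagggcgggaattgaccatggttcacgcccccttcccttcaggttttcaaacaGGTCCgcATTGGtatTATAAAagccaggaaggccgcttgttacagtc
Hist1h1e, chr13:23622559-23622808, minus strand: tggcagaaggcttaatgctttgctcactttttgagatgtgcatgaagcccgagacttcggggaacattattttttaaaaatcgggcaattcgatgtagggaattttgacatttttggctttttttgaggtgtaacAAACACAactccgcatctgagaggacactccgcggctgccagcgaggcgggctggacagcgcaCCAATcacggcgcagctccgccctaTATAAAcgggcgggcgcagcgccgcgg
Hist1h2ab, chr13:23750838-23751087, plus strand: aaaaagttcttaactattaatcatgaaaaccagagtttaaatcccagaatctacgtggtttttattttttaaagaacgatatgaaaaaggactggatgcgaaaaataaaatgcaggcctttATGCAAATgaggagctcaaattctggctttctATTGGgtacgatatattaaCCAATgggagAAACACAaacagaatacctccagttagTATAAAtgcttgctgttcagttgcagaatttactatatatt
Hist1h1c, chr13:23738557-23738806, plus strand: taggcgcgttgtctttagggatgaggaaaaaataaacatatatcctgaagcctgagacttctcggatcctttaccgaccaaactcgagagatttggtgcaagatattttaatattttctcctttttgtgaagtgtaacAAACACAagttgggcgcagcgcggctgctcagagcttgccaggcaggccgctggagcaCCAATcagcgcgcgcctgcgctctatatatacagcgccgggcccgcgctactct
Hist1h2bm, chr13:21721794-21722043, plus strand: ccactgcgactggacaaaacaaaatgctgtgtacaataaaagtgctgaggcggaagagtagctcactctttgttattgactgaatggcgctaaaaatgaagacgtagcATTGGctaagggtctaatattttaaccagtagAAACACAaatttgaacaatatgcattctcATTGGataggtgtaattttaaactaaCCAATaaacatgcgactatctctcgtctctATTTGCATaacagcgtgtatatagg

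RefSeq promoters were matched by gene for 22 member genes. The H1 box was in 5 of 6 H1, 2 of 7 H2A, 2 of 5 H2B and 0 of 4 H4 promoters, against 6.25% of all 32851 promoters of that length. The octamer was in 4 of 5 H2B and 4 of 7 H2A promoters, and in 0 of the H1 and H4 promoters, against 1.6% of all. GGTCC was in 3 of 4 H4 promoters, against 39.8% of all. CCAAT was in 20 of 22 promoters and TATAAA in 12 of 22, against 33.8% and 12.4% of all. Some H2A and H2B genes stand head to head, so that their windows share bases, as those of Hist1h2aa and Hist1h2ba do. The 7 promoters of genes with wide swings did not share a motif: 5 of 7 held TATAAA and 5 of 7 held CCAAT, 3 of 7 held the H1 box, 3 of 7 held GGTCC, and 1 of 7 held the octamer. A match describes letters in the window and not a bound site.

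**Figure D1:**
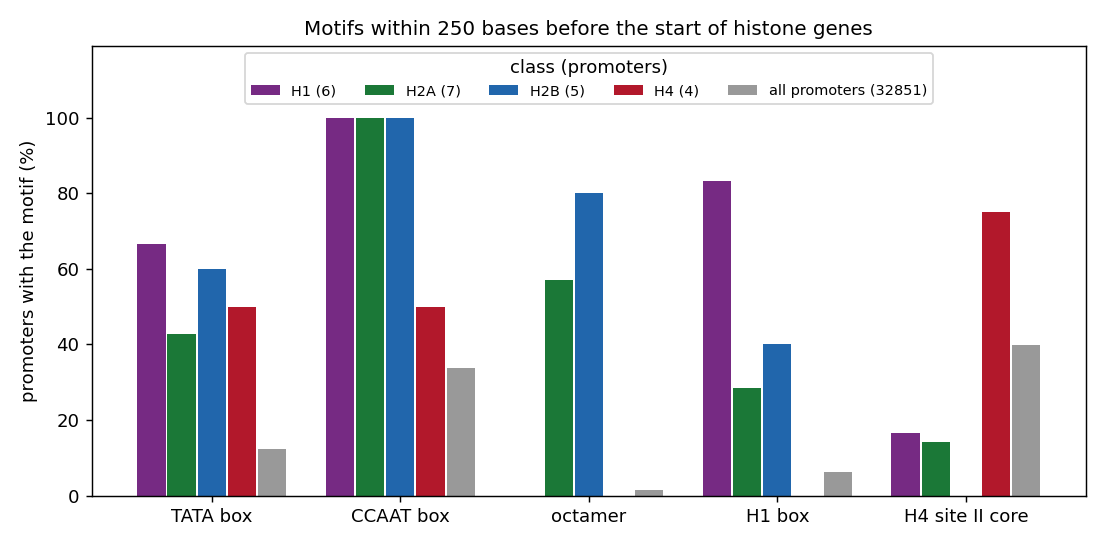
Percent of promoters that hold each motif in the 250 bases before the gene start, for H1, H2A, H2B and H4 members and for all RefSeq promoters, with the number of promoters in the legend. The H1 box was most frequent in H1 (5 of 6) and the octamer in H2B (4 of 5), while neither was found in the 4 H4 promoters.

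By the scanner software's call, signal stood clear of background for 79.6% to 94.2% of non-control features in the older mice (Cy3) and for 90.5% to 95.4% in the reference (Cy5). All 12 tested thymocyte markers, among them Cd3e, Cd4, Cd8a and Rag1, passed the same call in every older mouse. The 29 tested histone probes were well above background in both channels on all 9 arrays and no spot of a member was marked as an outlier. The remaining probe, A_51_P148860 of Hist4h4, was well above background on 0 arrays in Cy3 and 1 array in Cy5, and was not tested. Among all non-control spots, 179 were marked as outliers on 24 month replicate 3 and 159 on 24 month replicate 1, against 34 to 52 on the other arrays. The number of arrays limits the precision.

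**Figure D2:**
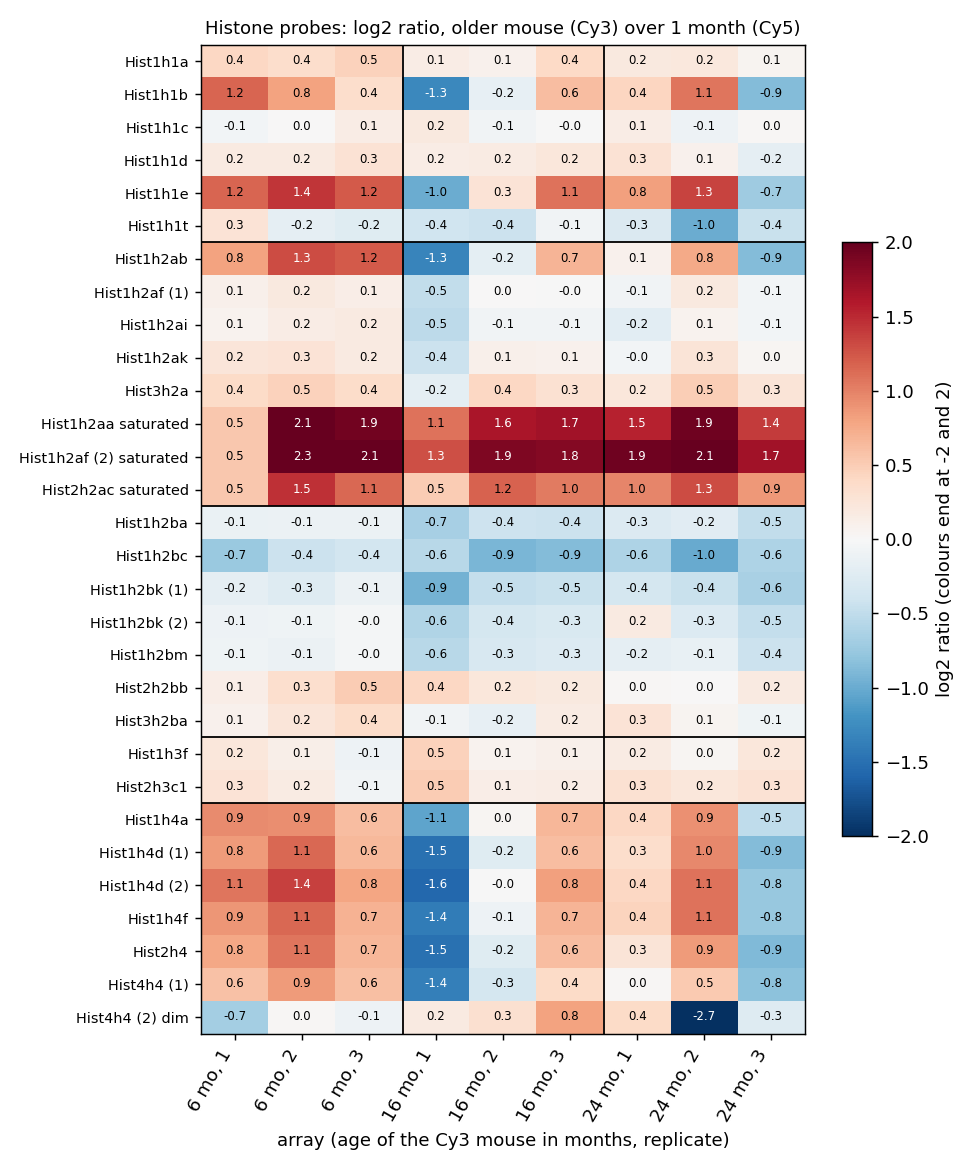
Log2 ratio of the older mouse (Cy3) over the 1 month reference (Cy5) for each of the 30 histone probes (rows, by class) on each of the 9 arrays (columns, by age). The H4 probes, Hist1h1b, Hist1h1e and Hist1h2ab share a pattern that is red at 6 months and darkest blue on 16 month replicate 1, and most H2B probes are blue at 16 and 24 months.

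All 6 tested H4 probes were above the 1 month reference on every 6 month array, then spread from far below to well above it among mice of 1 age at 16 and 24 months. H4 forms the nucleosome core together with H3. Their median log ratio was 0.86 at 6 months, -0.32 at 16 months and 0.20 at 24 months, while the median of all tested probes lay between -0.02 and -0.01. None of them passed the threshold at any age in the model fitted to all 9 arrays. The 16 month median was 0.24 without replicate 1 and -0.82 without replicate 3, so its sign rested on single arrays. How many of all tested probes were above the reference on every 6 month array was not counted.

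For the Hist1h4d probe A_51_P482070 the annotation lists 1 RefSeq mRNA among 4 accessions, which does not show that it detects 1 gene alone. This probe stood at 1.08, 1.37 and 0.79 on the 6 month arrays, at -1.57, -0.00 and 0.82 on the 16 month arrays, and at 0.41, 1.08 and -0.76 on the 24 month arrays. It was high in every 6 month mouse, and the values of the 16 and 24 month mice overlapped. Its mean of 1.08 at 6 months corresponds to 2.11-fold (SE 0.45, adjusted p = 0.15 in limma), with means of -0.25 at 16 months and 0.24 at 24 months (adjusted p of 0.727 and 0.717).

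Hist1h4a, the H4 probe with the highest mean at 24 months, stood at 0.94, 0.93 and 0.61 at 6 months, at -1.06, 0.03 and 0.66 at 16 months, and at 0.41, 0.91 and -0.50 at 24 months. The Hist4h4 probe A_52_P299703, with the lowest mean at 24 months, stood at 0.59, 0.85 and 0.60 at 6 months, at -1.36, -0.35 and 0.38 at 16 months, and at 0.03, 0.52 and -0.83 at 24 months. The 2 probes thus had the same arrays high and low. At 6 months the means of the H4 probes ran between 0.68 and 1.08, at 16 months between -0.44 and -0.12, and at 24 months between -0.09 and 0.27.

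A few members outside H4 followed the same arrays, a grouping made after their values were seen. Hist1h1e, a linker histone, stood at 1.16, 1.43 and 1.22 at 6 months, at -0.998, 0.28 and 1.08 at 16 months, and at 0.81, 1.35 and -0.71 at 24 months. Its 6 month mean was 1.27 (SE 0.44, 2.41-fold, adjusted p = 0.0942). Hist1h1b, another linker histone, stood at 1.16, 0.80 and 0.35 at 6 months, at -1.28, -0.16 and 0.61 at 16 months, and at 0.43, 1.07 and -0.87 at 24 months. Hist1h2ab, an H2A gene, stood at 0.81, 1.30 and 1.23 at 6 months, at -1.32, -0.19 and 0.68 at 16 months, and at 0.09, 0.76 and -0.86 at 24 months. Its 6 month mean was 1.11 (SE 0.38, adjusted p = 0.0951).

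Each of these 9 probes was lowest on 16 month replicate 1 and next lowest on 24 month replicate 3. The order was not particular to them: 4 of the 7 H2B probes (Hist1h2ba, both Hist1h2bk probes and Hist1h2bm) had it too, with smaller swings, as did 4.14% of all tested probes with a value on every array. Over all these probes, deviations from the age means correlated at 0.33 between these arrays, the highest of any pair from different ages. Since the 9 were grouped after their values were seen, their order and spread are a description with no test. The SD of their log ratios within an age lay between 0.65 and 0.90, against a median of 0.16 over all tested probes, which places them between the 97.4 and 99.4 percentile. Relative to the median of the channel, their Cy3 signals varied over the 9 arrays with SDs between 0.69 and 0.96 log2 units, and their Cy5 signals with SDs between 0.11 and 0.18. The swings thus lay in the Cy3 channel, which held the older mice.

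**Figure D3:**
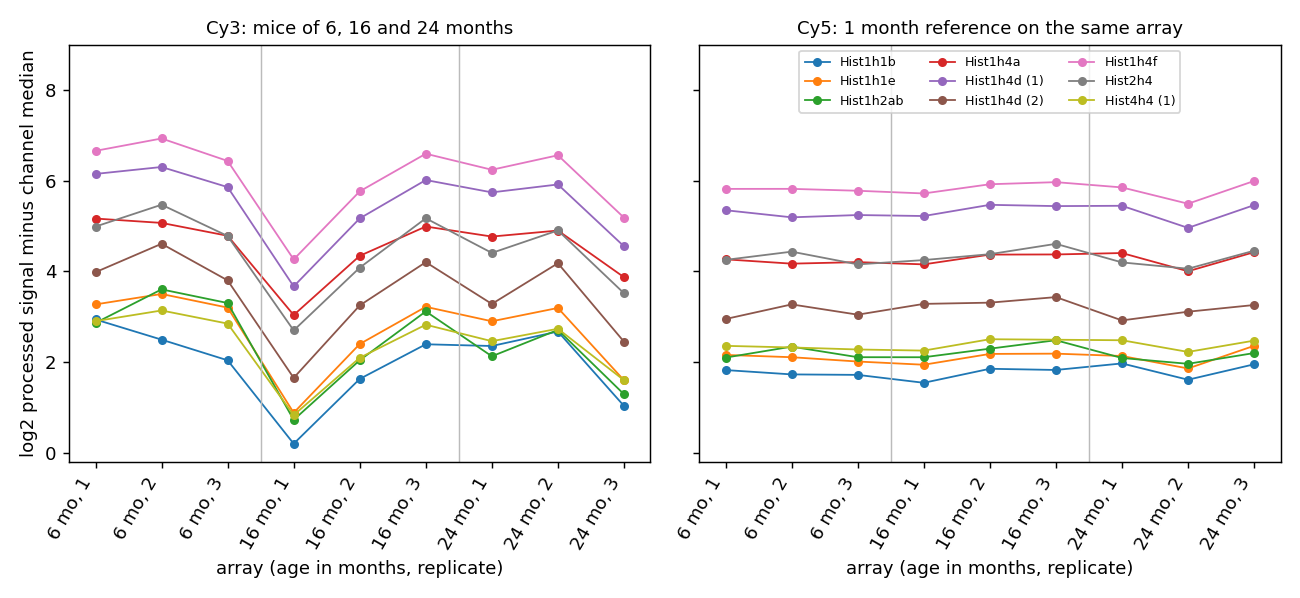
Log2 processed signal minus the median of the channel for the 9 widely varying histone probes on each array, for the older mice in Cy3 (left) and the 1 month reference in Cy5 (right). The Cy3 lines dip together on 16 month replicate 1 and 24 month replicate 3, and the Cy5 lines stay nearly level.

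Whether the 6 month values pass a test depended on which arrays set the spread. In a fit to the 6 month arrays alone, 7 of these 9 probes were called higher: Hist1h1e, Hist1h2ab, Hist1h4a, Hist1h4d (A_51_P482070), Hist1h4f, Hist2h4 and Hist4h4, with adjusted p between 0.0455 and 0.0494. In that fit 9 of 26 unsaturated members were higher, with Hist1h1a and Hist3h2a beside these 7, and 2.2% of all probes were called higher and 0.82% lower (3.02% in all). The 16 month arrays alone gave 0 members higher and 2 lower (Hist1h2ba and Hist1h2bc), against 6.9% and 2.54% of all probes (9.44% in all). The 24 month arrays alone gave 0 of 26, against 0% of all probes. Without 16 month replicate 1 and 24 month replicate 3 together, an alternative chosen after the data were seen, 8 of the 9 were called higher at 6 months. These are the arrays on which the 9 probes were lowest, so leaving them out lowers the spread of these probes by construction, and the added calls are no support for a difference. In that fit 11 of 26 unsaturated members were higher and 1 lower at 6 months, against 7.72% and 4.69% of all probes (12.4% in all). At 16 months 1 was higher and 4 were lower, against 5.96% and 3.27% (9.23% in all). At 24 months 2 were higher (Hist1h1e at 1.08 and Hist3h2a) and 3 lower, against 7.41% and 10.4% (17.8% in all). In bulk RNA, fewer cells making a transcript and less of it per cell cannot be told apart.

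Signals of red cells and other cell types were set beside this pattern. Adult haemoglobin, measured as the mean of 4 probes, stood at -1.93, -1.85 and -1.16 on the 6 month arrays, at 1.78, 1.18 and -0.71 on the 16 month arrays, and at -1.79, 0.34 and 1.27 on the 24 month arrays. It was highest on 16 month replicate 1 and next on 24 month replicate 3, the arrays on which the H4 probes were lowest. The other arrays did not keep this opposite order throughout. On 16 month replicate 2 haemoglobin was 1.18 and the H4 median -0.17, against 1.27 and -0.79 on 24 month replicate 3. On 24 month replicate 1 they were -1.79 and 0.38, and on replicate 2 of that age 0.34 and 0.94. Alas2, which makes haem in red cell precursors, stood at -1.18, -1.08 and -0.94, at 1.96, 1.64 and -0.24, and at -0.90, 0.59 and 1.52 in the same order. The whole list of 9 tested erythroid markers had array medians between -0.20 and -0.09 at 6 months, between -0.15 and 0.25 at 16 months, and between -0.03 and 0.05 at 24 months, and all 9 were well above background in Cy3 on every array. With haemoglobin as a covariate, the 6 month means of the 9 probes were between 0.15 and 0.61. None of them was called, as none was without the covariate. With the covariate the adjusted p of these probes lay between 0.46 and 0.87. Haemoglobin was below the reference on every 6 month array, so this fit cannot separate haemoglobin from that age. Whether red cell RNA has a part in the H4 values was not tested.

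**Figure D4:**
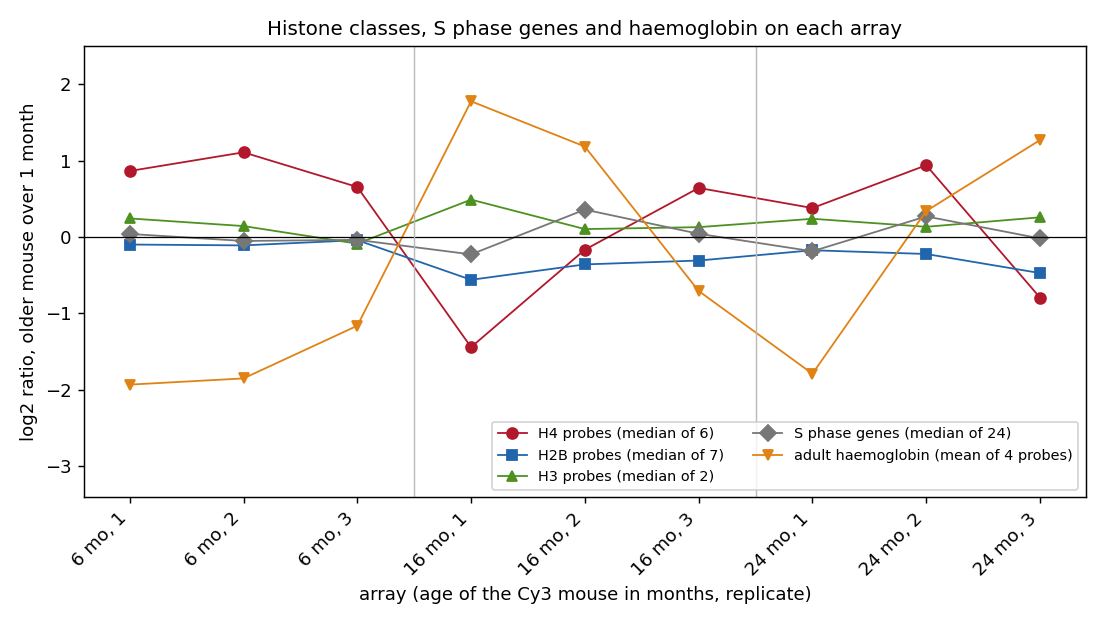
Per-array log2 ratios over 1 month of the median H4, H2B and H3 probe, of the median of 24 S phase genes and of adult haemoglobin. H4 falls to -1.44 on 16 month replicate 1 and -0.79 on 24 month replicate 3, where haemoglobin is highest at 1.78 and 1.27, and the S phase genes stay between -0.23 and 0.36. On 16 month replicate 2 haemoglobin is 1.18 and H4 -0.17, and on 24 month replicate 1 they are -1.79 and 0.38.

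Counted over the members, few unsaturated probes passed the threshold of an adjusted p under 0.05 in limma. At 6 months 2 of 26 were higher and 1 was lower, while 7.61% of all 37448 tested probes were higher and 4.76% lower, or 12.4% in all. At 16 months 1 was higher and 5 were lower, against 11.4% and 6.59% of all probes (18% in all). At 24 months 0 were higher and 5 were lower, against 11.6% and 13.3% of all probes (24.9% in all). The 3 ages share the 1 month reference and their counts are not independent. With the saturated probes, 6, 9 and 8 of 29 were called at 6, 16 and 24 months, and at 6 months 0 were called without 6 month replicate 2 and 1 without 6 month replicate 3. The shares of all probes called without these replicates are not given here, so the fall in count is no result about the histones.

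**Figure D5:**
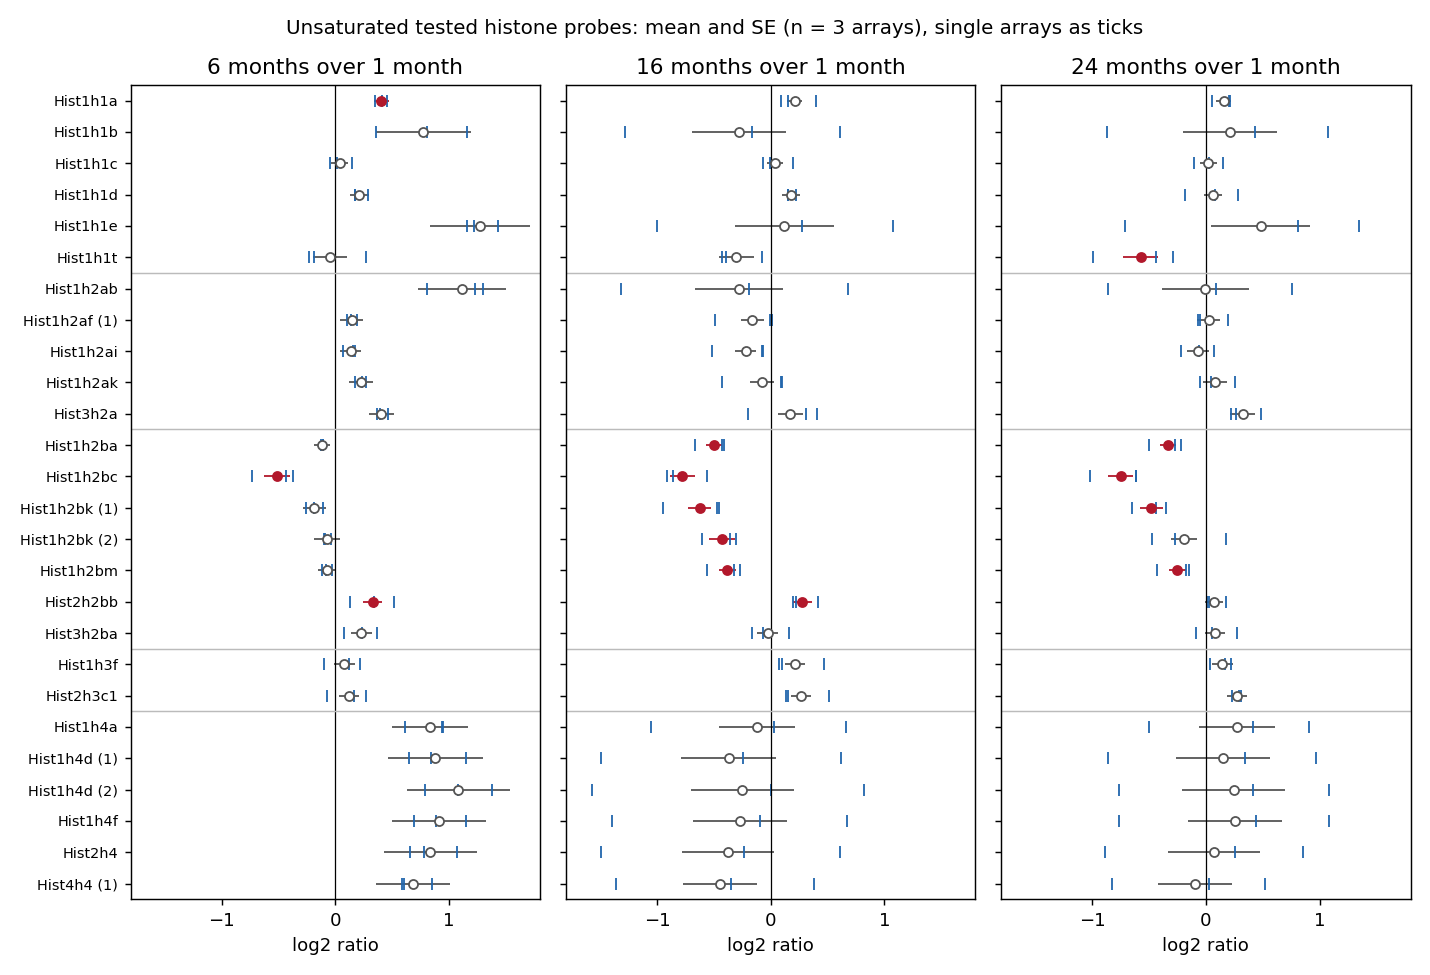
Mean log2 ratio over 1 month with its limma SE (points and bars, n = 3 arrays per age) for the 26 unsaturated tested histone probes, with single arrays as blue ticks and called probes in filled red. H4 means lie between 0.68 and 1.08 at 6 months without being called, and the called H2B probes lie below 0 at 16 and 24 months except Hist2h2bb.

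H2B was the class with the most called members, and most of these were lower in older mice. Of 7 H2B probes, 1 was higher and 1 lower at 6 months, against 7.61% and 4.76% of all tested probes. At 16 months 1 was higher and 5 were lower, against 11.4% and 6.59%. At 24 months 0 were higher and 4 were lower, against 11.6% and 13.3%. The mRNAs listed for Hist1h2bk A_51_P182358 overlap those of A_52_P388224 and of Hist1h2bm, so the calls of these probes are not independent. The class median was -0.08 at 6 months, -0.42 at 16 months and -0.25 at 24 months.

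Hist1h2bc stood at -0.74, -0.43 and -0.37 at 6 months, at -0.56, -0.91 and -0.86 at 16 months, and at -0.62, -1.02 and -0.61 at 24 months. It was below the 1 month reference on all 9 arrays, with means of -0.51, -0.78 and -0.75 at 6, 16 and 24 months (SE 0.11, adjusted p of 0.0261, 0.00496 and 0.00523). With no dye swap, a constant dye effect of the probe cannot be told apart from age. No difference between 6, 16 and 24 months was called. The 16 month call held under all 21 alternative settings, and the 24 month call was lost only when the 24 month arrays were fitted alone. The 6 month call was lost under 6 settings, including without any 1 of the 6 month arrays and with haemoglobin as a covariate. A probe named BC011440 on the array and described as the same gene stood at 0.31, 0.15 and 0.32 at 6, 16 and 24 months and was not called, so the probes disagree in sign.

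Hist1h2ba, a testis form of H2B, stood at -0.13, -0.11 and -0.11 at 6 months, at -0.67, -0.41 and -0.43 at 16 months, and at -0.27, -0.22 and -0.50 at 24 months. Every 16 and 24 month array was below every 6 month array, a separation not counted over all probes. It fell by 0.50 at 16 months and by 0.33 at 24 months (SE 0.07, adjusted p of 0.00491 and 0.0164), and the 16 month call held under all 21 alternative settings. The 24 month call was lost without 24 month replicate 1, without 24 month replicate 3 and with the 24 month arrays alone. At 6 months its mean of -0.12 was not called (adjusted p = 0.29).

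Hist1h2bk had 2 probes, each listed for 4 mRNAs. A_51_P182358 stood at -0.19, -0.26 and -0.11 at 6 months, at -0.94, -0.48 and -0.45 at 16 months, and at -0.35, -0.44 and -0.65 at 24 months. Its 6 month arrays again did not overlap the older ones, which was not counted over all probes. It fell by 0.62 at 16 months and 0.48 at 24 months (SE 0.10, adjusted p of 0.00747 and 0.0154), both calls being lost with the arrays of that age alone and the second also without 24 month replicate 2 or 3. A_52_P388224 stood at -0.10, -0.09 and -0.04 at 6 months, at -0.61, -0.36 and -0.31 at 16 months, and at 0.18, -0.27 and -0.47 at 24 months. It fell by 0.42 at 16 months (SE 0.11, adjusted p = 0.0385), a call lost under 10 of 21 settings, including without any 1 of the 6 or 16 month arrays.

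Hist1h2bm, listed for 4 mRNAs, stood at -0.08, -0.12 and -0.03 at 6 months, at -0.56, -0.32 and -0.27 at 16 months, and at -0.17, -0.14 and -0.43 at 24 months. All 9 values were below the reference, and all 6 month values were above those of the older mice, a separation not counted over all probes. It fell by 0.38 at 16 months and 0.25 at 24 months (SE 0.07, adjusted p of 0.0136 and 0.0445), the first call being lost without 16 month replicate 1 or 2, with haemoglobin as a covariate and with the 16 month arrays alone, and the second under 13 of 21 settings. A probe named NAP101256-1 on the array and described as an H2B gene of the Hist3 cluster gave -0.05, -0.38 and -0.25 at 6, 16 and 24 months, with adjusted p of 0.704, 0.0145 and 0.0487.

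Hist2h2bb moved the other way. It stood at 0.13, 0.34 and 0.51 at 6 months, at 0.42, 0.22 and 0.20 at 16 months, and at 0.02, 0.01 and 0.18 at 24 months. It rose by 0.33 at 6 months and by 0.28 at 16 months (SE 0.08, adjusted p of 0.0381 and 0.0478). These calls were lost under 9 and 14 of 21 settings. Hist3h2ba, the H2B probe with the highest mean at 24 months, stood at 0.08, 0.24 and 0.37, at -0.07, -0.16 and 0.16, and at 0.28, 0.05 and -0.08 at 6, 16 and 24 months, and was not called.

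Among the other H1 genes, Hist1h1a was higher at 6 months and the testis form Hist1h1t lower at 24 months. Hist1h1a stood at 0.41, 0.35 and 0.45 at 6 months, at 0.15, 0.09 and 0.40 at 16 months, and at 0.20, 0.21 and 0.06 at 24 months, above the reference on all 9 arrays. It rose by 0.40 at 6 months (SE 0.07, adjusted p = 0.0124), and its means of 0.21 and 0.16 at 16 and 24 months were not called (adjusted p of 0.0635 and 0.118). The 6 month call was lost without 6 month replicate 1, without 6 month replicate 2 and with haemoglobin as a covariate.

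Hist1h1t stood at 0.27, -0.18 and -0.24 at 6 months, at -0.40, -0.43 and -0.07 at 16 months, and at -0.29, -0.995 and -0.44 at 24 months. It was below the reference on all 16 and 24 month arrays, with 1 low value on 24 month replicate 2. That array had the smallest share of Cy3 features clear of background, at 79.6%. Hist1h1t had the lowest Cy3 signals of the tested members, at 258 to 518. It fell by 0.57 at 24 months (SE 0.15, adjusted p = 0.0304), a call lost under 4 of 21 settings, among them without 24 month replicate 2, without 24 month replicate 3 and with the 24 month arrays alone. Hist1h1c and Hist1h1d, somatic linker histones, stayed between -0.18 and 0.29 on all 9 arrays and were not called. Over the 6 H1 probes the median was 0.31, 0.08 and 0.11 at 6, 16 and 24 months.

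None of the unsaturated H2A probes was called at any age, and those other than Hist1h2ab swung less than the H4 probes, between -0.52 and 0.49. Hist3h2a, with the highest mean at 24 months, stood at 0.39, 0.46 and 0.36 at 6 months, at -0.20, 0.41 and 0.31 at 16 months, and at 0.23, 0.49 and 0.27 at 24 months (adjusted p of 0.0521, 0.308 and 0.0655). Hist1h2ai, with the lowest mean at 24 months, stood at 0.07, 0.16 and 0.17, at -0.52, -0.07 and -0.07, and at -0.22, 0.07 and -0.06 at 6, 16 and 24 months. Hist1h2ak and the unsaturated Hist1h2af probe were also lowest on replicate 1 among the 16 month arrays. All 5 unsaturated H2A probes were above the reference on all 6 month arrays and lowest on 16 month replicate 1, and 12.3% of all tested probes were lowest there. The share of all tested probes above the reference on all 6 month arrays was not counted. The class median was 0.23, -0.16 and 0.02 at 6, 16 and 24 months.

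A further 3 H2A probes were saturated in Cy5 on all 9 arrays and in Cy3 on 6 month replicate 1, so their Cy5 signal is only a lower bound and they have no fold and no direction. The Hist1h2aa probe, for a testis form, had measured ratios of 0.54, 2.11 and 1.92 at 6 months, 1.08, 1.64 and 1.68 at 16 months, and 1.54, 1.94 and 1.40 at 24 months. The Hist1h2af probe A_52_P165633 had 0.54, 2.30 and 2.06, then 1.29, 1.86 and 1.84, then 1.95, 2.10 and 1.67, and Hist2h2ac had 0.53, 1.46 and 1.15, then 0.50, 1.18 and 1.04, then 0.98, 1.31 and 0.87. The low value of each at 6 months was on the array where both channels were saturated. The unsaturated Hist1h2af probe gave means of 0.14, -0.16 and 0.02, and its annotation lists 4 mRNAs, against 2 for the saturated probe. A probe named NAP106232-1 and described as H2A was saturated in Cy5 on 9 arrays and in Cy3 on 1.

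Neither H3 probe was called. H3 carries many of the tail modifications of chromatin, and both probes are listed for 4 mRNAs. For Hist2h3c1 these include the H2B gene H2bc21 and an mRNA that matched no current gene. Hist2h3c1 stood at 0.27, 0.16 and -0.07 at 6 months, at 0.51, 0.13 and 0.15 at 16 months, and at 0.31, 0.23 and 0.29 at 24 months (adjusted p of 0.395, 0.0751 and 0.0557). Hist1h3f stood at 0.22, 0.12 and -0.10, at 0.47, 0.07 and 0.10, and at 0.17, 0.04 and 0.22 (adjusted p of 0.595, 0.144 and 0.277). Both were highest on 16 month replicate 1, the array on which the H4 probes were lowest. A probe named BC019757 and described as the H4 gene H4i stood at -0.17, 0.02 and 0.30, at -0.18, 0.05 and -0.20, and at -0.37, -0.18 and -0.12, without the swings of the other H4 probes.

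Between the older ages, where a constant dye effect cancels, no histone probe passed. For 16 against 6 months 0 of 29 were called in limma, as were 0% of all probes, and 6 of 29 had an unadjusted p under 0.05, all lower, against 6.38% of all probes. For 24 against 6 months it was 0 of 29 (0% of all), with 2 of 29 at an unadjusted p under 0.05, both lower, against 9.11%. For 24 against 16 months it was 0 of 29 (0% of all), with 0 of 29 at an unadjusted p under 0.05, against 4.77%. The F test for any difference among these ages called 0 of 29 (0% of all), and 2 of 29 had an unadjusted p under 0.05, against 6.64%.

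Among these differences Hist1h2ba had the smallest unadjusted p for 16 against 6 months. It differed by -0.38 (SE 0.10, unadjusted p = 0.0051, adjusted p = 0.769). The largest difference was in Hist1h2ab, at -1.39 (SE 0.54, 95% interval -2.64 to -0.13, adjusted p = 0.769) and the Hist1h4d probe A_51_P482070 differed by -1.33 (SE 0.64, 95% interval -2.81 to 0.15, adjusted p = 0.769). The 6 H4 probes differed by -1.33 to -0.95 at 16 against 6 months and by -0.84 to -0.56 at 24 against 6 months. These intervals are wide, and a difference of these sizes was neither shown nor shown to be absent.

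Among genes that control histone mRNA, 13 of the 19 listed genes were tested, and 1 rose and 1 fell at 6 months, 3 rose and 2 fell at 16 months, and 3 rose and 3 fell at 24 months. Of all tested probes 12.4%, 18% and 24.9% were called at 6, 16 and 24 months, the background for this and each further list. Slbp stood at -0.35, -0.39 and -0.19 at 6 months, at -0.48, -0.32 and -0.43 at 16 months, and at -0.74, -0.30 and -0.50 at 24 months. It was below the reference on all 9 arrays, on average by 0.31, 0.41 and 0.51 (SE 0.08, adjusted p of 0.0471, 0.0155 and 0.00683), with no called difference between the older ages. Cdk2, the kinase that activates histone transcription with cyclin E, rose by 0.74, 0.53 and 0.62 (SE 0.14, adjusted p of 0.017, 0.0334 and 0.0169), but its other probe gave 0.03 at 6 months and -0.12 at 24 months. E2f1, which drives S phase genes, rose by 0.53 at 16 months and 0.57 at 24 months, while its other probe gave 0.06 at 24 months. Upf1, needed for histone mRNA decay, rose by 0.53 and 0.58 at 16 and 24 months. Cstf2, a 3' end cleavage factor, fell by 0.28 at 16 months and 0.35 at 24 months, and Casp8ap2, needed for histone transcription, by 0.23 at 24 months.

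Within the same list, Cpsf2, a subunit of the complex that cleaves histone pre-mRNA, was named after its values were seen. It was lowest on 16 month replicate 1 and next lowest on 24 month replicate 3, as the H4 probes were. Its other arrays did not all keep the order of H4. It stood at 0.62, 0.43 and 0.30 at 6 months, at -0.44, 0.12 and 0.52 at 16 months, and at 0.23, 0.36 and -0.26 at 24 months, and was not called, and its other probe gave 0.09 at 6 months. In all, 3 of the 13 genes were lowest on 16 month replicate 1 and next lowest on 24 month replicate 3, against 4.14% of all tested probes.

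S phase genes were set beside the H4 pattern. Of 24 tested DNA synthesis genes 0 passed at 6 months (0 higher and 0 lower), 2 rose and 2 fell at 16 months, and 1 rose and 3 fell at 24 months, with medians of -0.04, 0.08 and 0.06. Fen1, a flap endonuclease, rose by 0.61 at 16 months and 0.47 at 24 months, and Cdc45, a helicase cofactor, by 0.75 at 16 months. Prim2 of the primase fell by 0.27 at 16 months and 0.39 at 24 months, and Pola1 of the polymerase fell by 0.55 at 24 months. On 16 month replicate 1, where H4 was lowest, 10 of the 24 were also at their lowest, against 12.3% of all tested probes. Of the 24, 4 were lowest there and next lowest on 24 month replicate 3, as the H4 probes were, against 4.14%. The array medians of this list lay between -0.23 and 0.36, against -1.44 to 1.11 for H4.

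Of 13 tested histone chaperone and acetylation genes, 0 passed at 6 months, 1 rose and 1 fell at 16 months and 1 fell at 24 months. Asf1a, which hands H3 and H4 to assembly factors, fell by 0.57 at 16 months and at 24 months (SE 0.07, adjusted p of 0.00336 and 0.00341), with its other probe at -0.16 at 24 months, and Supt16, a subunit of the FACT chaperone, rose by 0.43 at 16 months. Of 10 tested replication-independent histone variants, the centromeric H3 gene Cenpa fell by 0.33 at 6 months and 0.39 at 24 months. The other call was H2aj, saturated in Cy5 on all 9 arrays, to which no direction is given. Of 9 mitotic genes, the checkpoint kinase gene Bub1b rose by 0.64 at 16 months and 0.52 at 24 months and Ccnb1 fell by 0.32 at 24 months. Medians of these lists lay between 0.01 and 0.23 at all ages.

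Markers of the cells the preparation could hold were counted on the same arrays. Of 12 thymocyte markers, 4 were saturated on at least 1 array and get no direction. Of the other 8, 1 rose and 1 fell at 6 months, 1 rose and 1 fell at 16 months, and 2 rose and 1 fell at 24 months. Of 6 thymic epithelium markers, 5 fell at 6 months, 3 at 16 months and 2 at 24 months, with list medians of -1.33, -0.88 and -0.14. Ccl25, an epithelial chemokine, fell by 2.43, 2.20 and 1.81 (SE 0.20, adjusted p of 0.00272, 0.00149 and 0.00254).

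Of 8 B and plasma cell markers, 0 passed at 6 months, 3 rose at 16 months and 1 rose at 24 months. Jchain, the joining chain of secreted antibodies, rose by 2.54 at 16 months and 2.57 at 24 months (SE 0.25, adjusted p of 0.00199 and 0.00215). Of 9 macrophage and granulocyte markers, 2 rose at 16 months, and 1 rose and 2 fell at 24 months. Of 5 stroma markers, 2 rose at 16 months and 1 at 24 months. Of 9 erythroid markers, 1 fell at 6 months and 1 rose at each later age. The part of these cells in the histone values was not tested.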

How the data were processed

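Feature Extraction intensities were deposited by the authors as background-subtracted, LOWESS dye-normalized processed signals, per the file headers (software 7.5.1, smooth factor 0.25; the submitters' processing notes name 7.1). The deposited score values tracked log10 processed signal within each channel (r of 1) and served as an alternative. Log2 Cy3 over Cy5 ratios were fitted with limma 3.58.1 (R 4.3.3) with 1 mean per age over 9 arrays, and p-values were adjusted by Benjamini-Hochberg over 37448 probes (two-sided, threshold 0.05). Tested probes had Cy3 signal clear of background, by the scanner software's call, in all 3 mice of an age, or Cy5 signal so in all 9. Spots marked as outliers were left out. The 1 month reference was treated as 1 control without a spread of its own.

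Named were members past the threshold in any contrast and, per class, the highest and lowest 24 month mean; Hist1h4d, Hist1h1b, Hist1h2ab and Cpsf2 were chosen after their values were seen. The members and the marker, regulator, variant, chaperone, S phase and mitosis lists were chosen with earlier results of these data known. On simulated data with 37448 probes for 6 months against the 1 month reference, 49.3% of probes changed by 0.5 and 76.1% of those changed by 1 log2 unit were found, and for 16 against 6 months 26.9% and 59.7%, over probes drawn at random, most of which vary less than the H4 probes. Alternatives are given in the closing section. Promoters came from RefSeq tables. Python 3.11.15, numpy 2.4.6, pandas 2.3.3 and matplotlib 3.10.9 were used.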

Additional observations from a re-analysis of the deposited data

Results flagged for a closer look

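The Hist1h2ak probe A_52_P498208 had a Cy5 level of 5.47 log2 units above the channel median on the array of 24 month replicate 1, apart from the next lowest array at 5.83 and the median of 9 arrays at 5.92. About 1 group in 20 stands out in this way by chance.

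For the Hist1h2ai probe A_52_P651235, all 16 month arrays lay below the 1 month reference and all 6 month arrays above it, a difference of -0.35 (SE 0.14, unadjusted p = 0.0314, adjusted p = 0.769 in limma), which did not pass.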

How the results depend on the processing

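Of the 14 calls of unsaturated members against the 1 month reference, 0 changed direction under the 21 alternatives, 8 to 11 were kept without any single array and 3 when each age was fitted alone. The count of 6 called histone probes at 6 months became 3 without saturated probes, 0 with haemoglobin as a covariate, 15 without 16 month replicate 1 and 24 month replicate 3 together (chosen after seeing the data), and 0 to 7 without single arrays. The count of 9 at 16 months became 5 with that age alone and 3 to 8 without single arrays. The count of 8 at 24 months became 5 without saturated probes, 0 with that age alone and 4 to 10 without single arrays. Over all probes 1132 were called at 6 months with that age alone, against 4632. At 16 months it was 3534, against 6746, and at 24 months 0, against 9335. Without 16 month replicate 1 and 24 month replicate 3 together, 4645 of all probes were called at 6 months. For the other settings, the replicate block included, the share of all probes called is not given here. A count that changed under them is therefore no result about the histones. Fitting each age alone leaves fewer samples to set the spread; for the other settings the cause was not tested.

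With the replicate block the counts were 4, 7 and 8 at 6, 16 and 24 months and 0 between ages; same-numbered arrays correlated between -0.31 and 0.10, so the numbers do not pair the arrays. Class medians moved with normexp for H1 at 6 months (0.26). With background-subtracted signals they moved for H2A (0.069 at 6 months, -0.29 at 24 months), H2B at 6 months (-0.12) and H3 at 24 months (-0.18), and Hist1h2af A_52_P498210 reversed to -0.37 at 24 months, against 0.02. In the units of the authors' scores they were 0.12 for H1, 0.040 for H2A and 0.32 for H4 at 6 months, -0.22 for H2B at 16 months and 0.024 for H3 at 24 months. With saturated probes kept, also added after seeing the data, H2A was 0.73 at 6 months and 0.20 at 24 months. Without single arrays H1 at 16 months ran between -0.15 and 0.21. The cause was not tested. A scan date block was not run.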
